A study of Mus musculus with 48 samples.

Results

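The thick ascending limb of the loop of Henle was followed here through 7 of its characteristic genes: Umod, Slc12a1, Kcnj1, Bsnd, Cldn16, Cldn19 and Ptger3. They were chosen by name, and each was read from its probe set with the highest mean over 48 arrays among the probe sets annotated to that gene symbol alone. They are 7 of the 18193 genes that such a probe set represents, and all 7 passed the filter on low values that left 13174 genes for testing. Kidneys came from FVB mice, which the submitters call predisposed to renal lesions, and from C57BL/6 mice (B6), which they call not predisposed. At 9 weeks of age the mice of both strains had subtotal nephrectomy (Nx), an operation that takes away most of the kidney mass, or a sham operation. Kidneys were taken on day 2, day 28 or day 53 after surgery, which gives 12 groups of 4 mice with 1 whole-kidney RNA and 1 array per mouse. All values are log2 expression values as deposited. Mice are named by their group and the mouse number of their label.

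The thick ascending limb takes up salt without water, which dilutes the urine and builds the salt gradient of the renal medulla. Slc12a1 encodes the cotransporter that brings sodium, potassium and chloride into the cell and is the target of loop diuretics, Kcnj1 encodes the channel that returns potassium to the tubule lumen, and Bsnd encodes barttin, a membrane protein that chloride exit from the cell depends on. The resulting voltage drives magnesium and calcium between the cells through a pore of the claudins Cldn16 and Cldn19. Umod encodes uromodulin, a secreted protein made by this segment and abundant in urine, and Ptger3 encodes a receptor for prostaglandin E that restrains hormone-stimulated salt transport.

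Stretches upstream of the start sites are shown for 4 members whose fall in the remnant kidney is described below and for Cldn16, which was not lower at day 53. Each line gives the 250 bases before the RefSeq start site on build GRCm38.p6, in the direction of the gene, with capitals for the HNF1 core motif GTTAAT. The stretches lie at chr7:119479263-119479512 on the minus strand (Umod), chr2:125152350-125152599 (Slc12a1), chr9:32393735-32393984 (Kcnj1), chr3:157566626-157566875 (Ptger3) and chr16:26462885-26463134 (Cldn16), the last 4 on the plus strand.
Umod: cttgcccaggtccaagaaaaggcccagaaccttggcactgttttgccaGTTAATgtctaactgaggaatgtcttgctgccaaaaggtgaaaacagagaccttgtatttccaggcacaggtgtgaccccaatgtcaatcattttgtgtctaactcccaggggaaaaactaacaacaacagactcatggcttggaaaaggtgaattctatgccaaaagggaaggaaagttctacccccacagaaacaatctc
Slc12a1: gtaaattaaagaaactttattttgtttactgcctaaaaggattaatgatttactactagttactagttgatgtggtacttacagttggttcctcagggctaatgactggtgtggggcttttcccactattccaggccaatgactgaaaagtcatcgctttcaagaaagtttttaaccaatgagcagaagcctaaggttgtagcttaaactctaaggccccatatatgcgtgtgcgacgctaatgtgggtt
Kcnj1: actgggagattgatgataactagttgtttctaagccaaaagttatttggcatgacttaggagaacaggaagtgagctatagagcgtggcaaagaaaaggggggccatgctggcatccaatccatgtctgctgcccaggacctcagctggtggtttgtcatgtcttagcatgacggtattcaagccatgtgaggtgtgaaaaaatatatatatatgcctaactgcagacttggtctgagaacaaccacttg
Ptger3: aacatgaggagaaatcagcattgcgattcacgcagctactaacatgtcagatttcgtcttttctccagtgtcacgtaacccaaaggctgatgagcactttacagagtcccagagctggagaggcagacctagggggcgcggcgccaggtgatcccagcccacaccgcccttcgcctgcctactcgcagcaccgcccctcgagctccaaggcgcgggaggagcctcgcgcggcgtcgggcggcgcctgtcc
Cldn16: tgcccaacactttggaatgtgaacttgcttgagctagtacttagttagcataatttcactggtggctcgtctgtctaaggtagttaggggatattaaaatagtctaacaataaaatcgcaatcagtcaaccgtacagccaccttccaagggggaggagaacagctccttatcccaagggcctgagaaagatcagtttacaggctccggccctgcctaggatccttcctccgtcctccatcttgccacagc

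A RefSeq entry was matched by symbol for 6 of the 7 members, all except Bsnd. The motifs searched on both strands were GTTAAT (a core of HNF1 sites), AAGGTCA (a site for estrogen-related receptors) and the TATA box TATAAA, none of which overlaps another in these stretches. The 1 match in the entries of the 6 members was GTTAAT in Umod, 202 to 197 bases before the start. Of 32851 mouse promoters of the same length, 6.43% hold GTTAAT, 4.08% AAGGTCA and 12.4% TATAAA. The members that fell together in the remnant kidney had no match of these motifs in common.

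The arrays carried kidney transcripts of several segments, with sham group means of 14.09 to 14.29 for the proximal tubule receptor Lrp2, 11.86 to 12.75 for the distal convoluted tubule cotransporter Slc12a3, 9.26 to 10.43 for the water channel Aqp2 and 4.73 to 5.19 for the podocyte gene Nphs1. Transcripts of pancreatic enzymes were present on some of them: the mean of 14 measured pancreas genes of 20 listed passed 5 in 16 of the 24 kidneys with Nx and in 3 of the 24 with sham surgery, with Nx group medians of 5.81 to 13.50 and sham group medians of 2.96 to 4.06. At day 2 the Gapdh 3 prime minus 5 prime difference, which rises as RNA degrades, was 0.23 to 0.45 in FVB Nx kidneys against 0.14 to 0.19 after sham, and 0.23 to 0.42 against 0.08 to 0.19 in B6. Its group means were also higher after Nx at day 28 (0.285 against 0.24 in FVB, 0.224 against 0.169 in B6) and day 53 (0.162 against 0.092, 0.195 against 0.122); its part in the results was not tested. In bulk RNA, fewer cells of a type and less RNA per cell cannot be told apart. Which nephron segment the RNA of each member came from, Kcnj1 and Bsnd included, was not tested.

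After nephrectomy most of the 7 thick limb genes were lower at day 2 in both strains and in FVB at day 53, and none passed in FVB at day 28. At FVB day 2, 6 of the 7 members were lower by limma with Benjamini-Hochberg adjustment over all 13174 genes (adjusted p under 0.05), where 30% of all genes were lower. None of the 7 passed at FVB day 28, where 8.81% of all genes were lower, and 5 of 7 were lower at FVB day 53 against 27.8% of all genes. In B6 kidneys 4 of 7 were lower at day 2 (24.4% of all genes), 2 of 7 at day 28 (9.14%) and 2 of 7 at day 53 (6.68%). No member was called higher in any of the 6 comparisons, where 968 to 3412 of all 13174 genes were. At an unadjusted p under 0.05, 6, 3 and 5 of 7 passed in FVB at days 2, 28 and 53, the 3 being Slc12a1, Kcnj1 and Bsnd. In B6, 6, 2 and 3 of 7 passed, and the 6 at day 2 were the same genes in both strains. The share of all genes at an unadjusted threshold was not counted, here or below. Nx values lay below all sham values without overlap for 6, 0 and 5 members in FVB at days 2, 28 and 53, where 23.7%, 12% and 24% of all genes did so, and for 4, 2 and 4 members in B6, where 22%, 9.7% and 10.4% did. The median log2 difference over the 7 members was -0.79, -0.25 and -1.17 in FVB at days 2, 28 and 53, and -0.41, -0.21 and -0.20 in B6, while the median over all genes lay between -0.03 and -0.01 in the same comparisons.

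**Figure D1:**
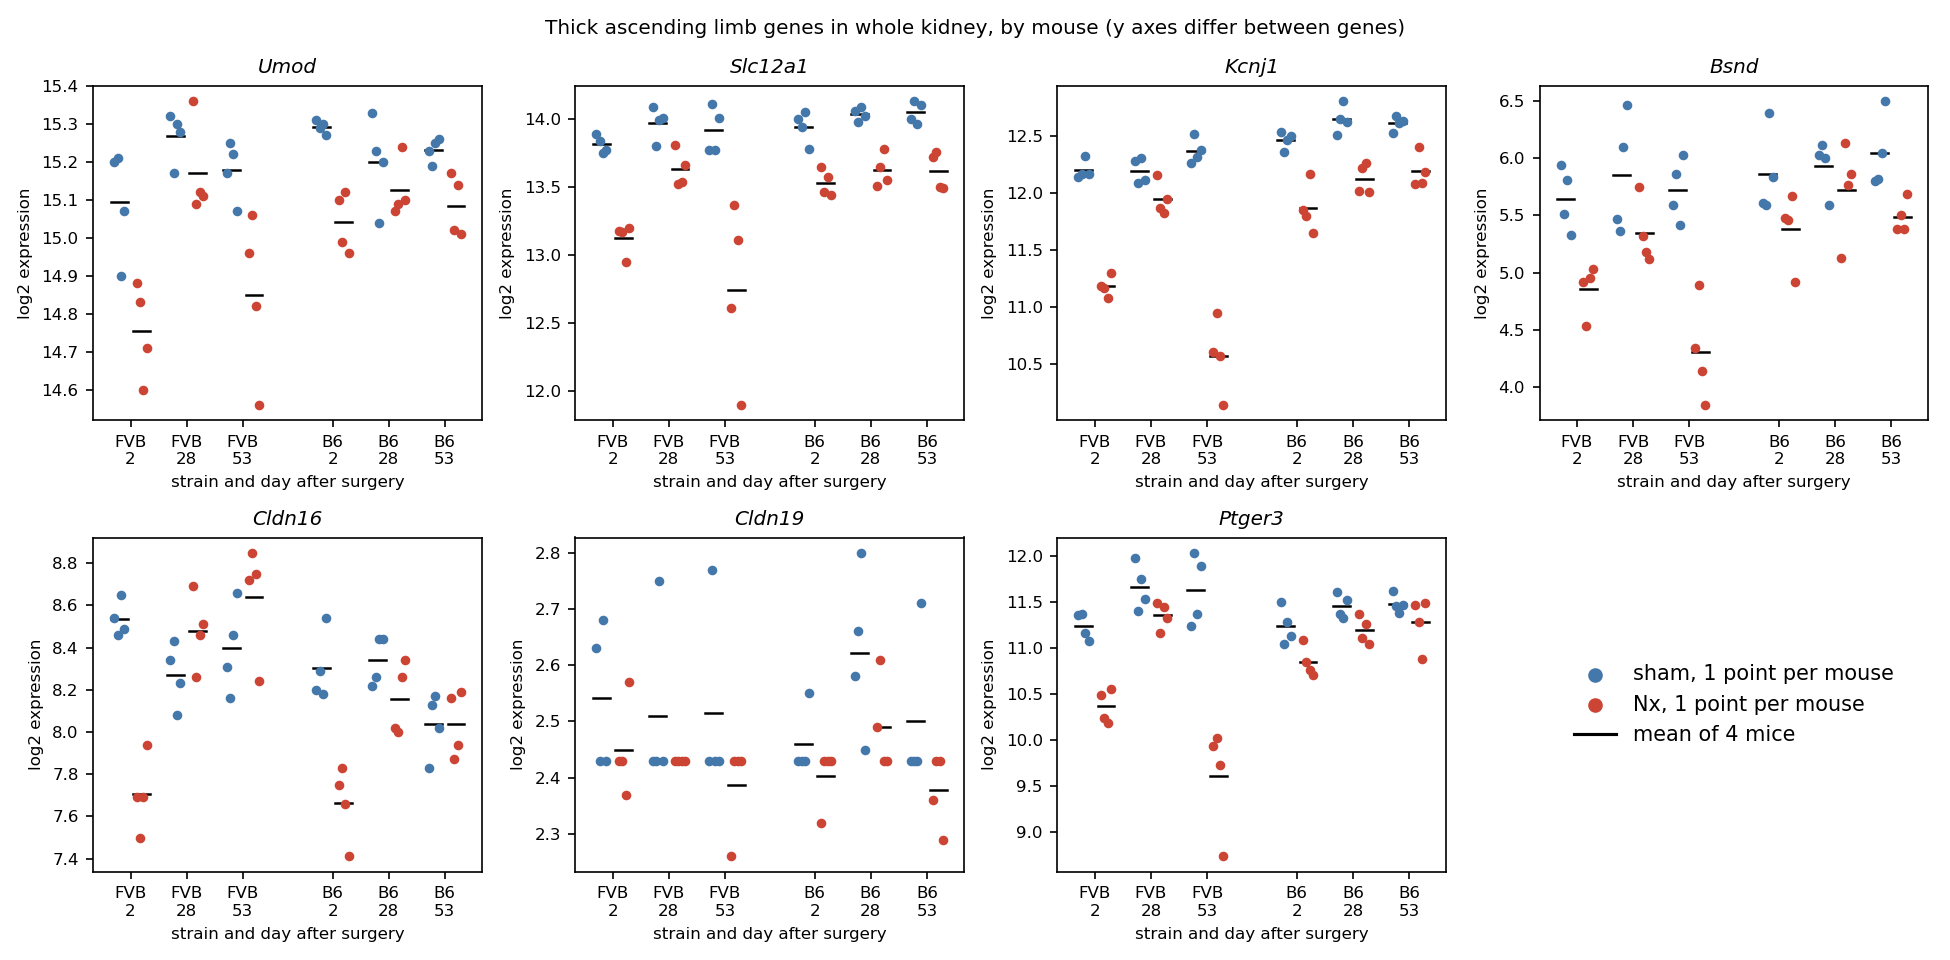
Log2 expression (y axis, scaled per gene) of the 7 thick ascending limb genes by strain and day after surgery (x axis). Each point is 1 mouse, blue for sham and red for Nx, and each bar is the mean of 4 mice. In FVB at day 53 the 4 Nx points of Umod, Slc12a1, Kcnj1, Bsnd and Ptger3 lie below all 4 sham points, while those of Cldn16 run from 8.24 to 8.85 and overlap sham.

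Slc12a1, the salt cotransporter, lay between 13.75 and 14.13 in all 24 sham kidneys. At day 2 the FVB Nx kidneys read 12.95, 13.17, 13.18 and 13.20, and their sham controls 13.75, 13.77, 13.84 and 13.89. By day 28 the FVB Nx values were 13.52, 13.54, 13.66 and 13.81 against 13.80, 13.99, 14.01 and 14.09. The groups did not overlap at day 2 and touched at day 28. At day 53 the FVB Nx values spread from 11.90 through 12.61 and 13.11 to 13.37, all below sham at 13.77, 13.77, 14.01 and 14.11. The differences were -0.69 at day 2 (SE 0.15, adjusted p = 0.000152 by limma), -0.34 at day 28 (adjusted p = 0.12) and -1.17 at day 53 (SE 0.15, adjusted p = 1.7e-08), so that the day 53 remnant held 44.6% of the sham level.

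In B6 the fall of Slc12a1 was about the same at each day. Nx kidneys read 13.44, 13.46, 13.57 and 13.65 at day 2 against 13.78, 13.94, 14.00 and 14.05 after sham. The Nx values were 13.51, 13.55, 13.65 and 13.78 at day 28 and 13.49, 13.50, 13.72 and 13.76 at day 53, below sham at 13.98 to 14.09 and 13.96 to 14.13. The groups did not overlap at any day, and the differences were -0.41, -0.42 and -0.43 (SE 0.15, limma adjusted p = 0.0226, 0.0439 and 0.0448). The later calls rest on small margins. At day 28 the call was lost without any 1 mouse other than Nx mouse 5 (adjusted p = 0.0583 to 0.13), and at day 53 without any 1 other than Nx mouse 2 (0.0589 to 0.121). At day 2 it was lost without Nx mouse 11 or 5 or sham mouse 1 or 4 (0.0508 to 0.0607).

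Kcnj1, the luminal potassium channel, was lower than sham in 5 of the 6 comparisons. At day 2 the FVB Nx kidneys read 11.08, 11.17, 11.19 and 11.30 against 12.14, 12.17, 12.17 and 12.33 after sham. At day 53 they read 10.14, 10.57, 10.61 and 10.95 against 12.27, 12.32, 12.38 and 12.52. The highest Nx value at day 53 was thus more than 1 log2 unit under the lowest sham value. The differences were -1.02 (SE 0.11, adjusted p = 1.97e-10) and -1.81 (SE 0.11, adjusted p = 9.48e-17 by limma), or 49.4% and 28.5% of sham. In between, at day 28, Nx values of 11.83, 11.87, 11.95 and 12.16 overlapped sham values of 12.09, 12.12, 12.28 and 12.31. That difference of -0.25 did not pass (limma adjusted p = 0.107), but passed without Nx mouse 2 (-0.32, adjusted p = 0.0475).

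B6 kidneys held Kcnj1 at 66.0%, 69.7% and 74.6% of sham at days 2, 28 and 53. At day 2 the Nx values were 11.65, 11.80, 11.85 and 12.17 and the sham values 12.36, 12.47, 12.50 and 12.54. At day 28 they were 12.01, 12.02, 12.22 and 12.27 against 12.51, 12.63, 12.65 and 12.81. No Nx value reached the sham range at either day. Day 53 gave 12.08, 12.09, 12.19 and 12.41 against 12.53, 12.62, 12.64 and 12.68, again without overlap. The differences were -0.60, -0.52 and -0.42 (SE 0.11; limma adjusted p = 1.38e-05, 0.000398 and 0.00452), and leaving out any 1 mouse ended none of these calls.

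Bsnd, which encodes barttin, fell in FVB at days 2 and 53. At day 2 the Nx kidneys read 4.53, 4.92, 4.95 and 5.03 against 5.33, 5.51, 5.81 and 5.94 after sham, and at day 53 3.84, 4.14, 4.34 and 4.89 against 5.42, 5.59, 5.86 and 6.03. Neither day had overlapping groups. The differences were -0.79 (SE 0.23, adjusted p = 0.00431) and -1.42 (SE 0.23, adjusted p = 2.35e-06 by limma), with 37.4% of sham left at day 53. At day 28 the FVB Nx values, 5.12, 5.18, 5.32 and 5.75, overlapped sham values of 5.36, 5.47, 6.10 and 6.47. In B6 the differences were -0.48, -0.21 and -0.55 and none passed (limma adjusted p = 0.096, 0.61 and 0.111), although at day 53 the Nx range of 5.38 to 5.69 lay under the sham range of 5.80 to 6.50.

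Cldn16 fell at day 2 in both strains and passed at no later day. At FVB day 2 the Nx values were 7.50, 7.69, 7.69 and 7.94 against 8.46, 8.49, 8.54 and 8.65, and at B6 day 2 they were 7.41, 7.66, 7.75 and 7.83 against 8.18, 8.20, 8.29 and 8.54. The Nx kidneys were all below sham in both strains, by -0.83 and -0.64 (SE 0.12; limma adjusted p = 2.91e-07 and 4.33e-05). At FVB day 28 the Nx values were 8.26, 8.46, 8.51 and 8.69 against 8.08 to 8.43 after sham, with 3 of 4 above every sham kidney. At FVB day 53 they were 8.24, 8.72, 8.75 and 8.85 against 8.16, 8.31, 8.46 and 8.66, so 3 of the 4 Nx kidneys lay above every sham kidney. This difference of 0.24 did not pass (SE 0.12, 95% interval -0.004 to 0.49, limma adjusted p = 0.0922). It passed without Nx mouse 10 (0.38, adjusted p = 0.00828) or without sham mouse 6 (0.33, adjusted p = 0.0293), the lowest Nx and the highest sham value. In B6 the day 28 and day 53 differences were -0.19 and 0.00, and neither passed.

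Within each array at FVB day 53, Cldn16 stood higher relative to 5 other members (Cldn19 was left out) after Nx than after sham. The log2 difference between Cldn16 and a second member changed from sham to Nx by 0.57 for Umod, 1.41 for Slc12a1, 1.66 for Bsnd, 2.05 for Kcnj1 and 2.27 for Ptger3. The pairs were chosen after the values had been seen and all share Cldn16, so these are descriptions with no test, and they show unequal change only.

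Cldn19 could not be followed at this level of signal. Its values lay between 2.26 and 2.80, close to the lowest value of the table, and 26 of 48 arrays held the same value of 2.43. Among sham kidneys 11 were at that value and 13 above it, while among Nx kidneys 15 were at it, 4 above and 5 below. No comparison of Cldn19 passed, with differences of -0.13 to -0.06 and SE 0.08, except under a shift of the arrays to a common median, where it was lower at FVB day 53 (-0.22, SE 0.08, limma adjusted p = 0.0169).

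Umod fell in FVB at days 2 and 53 and in B6 at day 2. The FVB Nx kidneys read 14.60, 14.71, 14.83 and 14.88 at day 2 against 14.90, 15.07, 15.20 and 15.21, and 14.56, 14.82, 14.96 and 15.06 at day 53 against 15.07, 15.17, 15.22 and 15.25. The ranges nearly touched at both days without overlapping. The differences were -0.34 (SE 0.08, adjusted p = 0.000281) and -0.33 (SE 0.08, adjusted p = 0.000447 by limma), or 79.0% and 79.7% of sham. B6 Nx kidneys read 14.96, 14.99, 15.10 and 15.12 at day 2 against 15.27, 15.29, 15.30 and 15.31, a difference of -0.25 (limma adjusted p = 0.00874). At B6 day 53 the Nx values of 15.01 to 15.17 lay below sham values of 15.19 to 15.26, but the difference of -0.15 did not pass (adjusted p = 0.212). At day 28 neither strain passed, with -0.10 in FVB and -0.07 in B6. Umod lay between 14.56 and 15.36 on all arrays, near the upper end of the scale, and whether its probes follow the transcript in proportion there was not tested.

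Ptger3, the prostaglandin receptor, fell in FVB kidneys. At day 2 the Nx values were 10.18, 10.24, 10.49 and 10.55 against 11.08, 11.16, 11.36 and 11.37 after sham. At day 53 they were 8.73, 9.73, 9.93 and 10.02 against 11.24, 11.37, 11.89 and 12.04. All Nx kidneys lay more than 0.5 log2 units under the lowest sham kidney at day 2, and more than 1 at day 53. The differences were -0.88 (SE 0.18, adjusted p = 7.98e-05) and -2.03 (SE 0.18, adjusted p = 3.91e-12 by limma), so that 24.5% of the sham level was left at day 53. At FVB day 28 the Nx values of 11.17, 11.33, 11.45 and 11.49 overlapped sham values of 11.41, 11.54, 11.75 and 11.98. In B6 the differences were -0.39, -0.27 and -0.20 and none passed (limma adjusted p = 0.0812, 0.337 and 0.534), and Nx and sham values overlapped at each day.

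**Figure D2:**
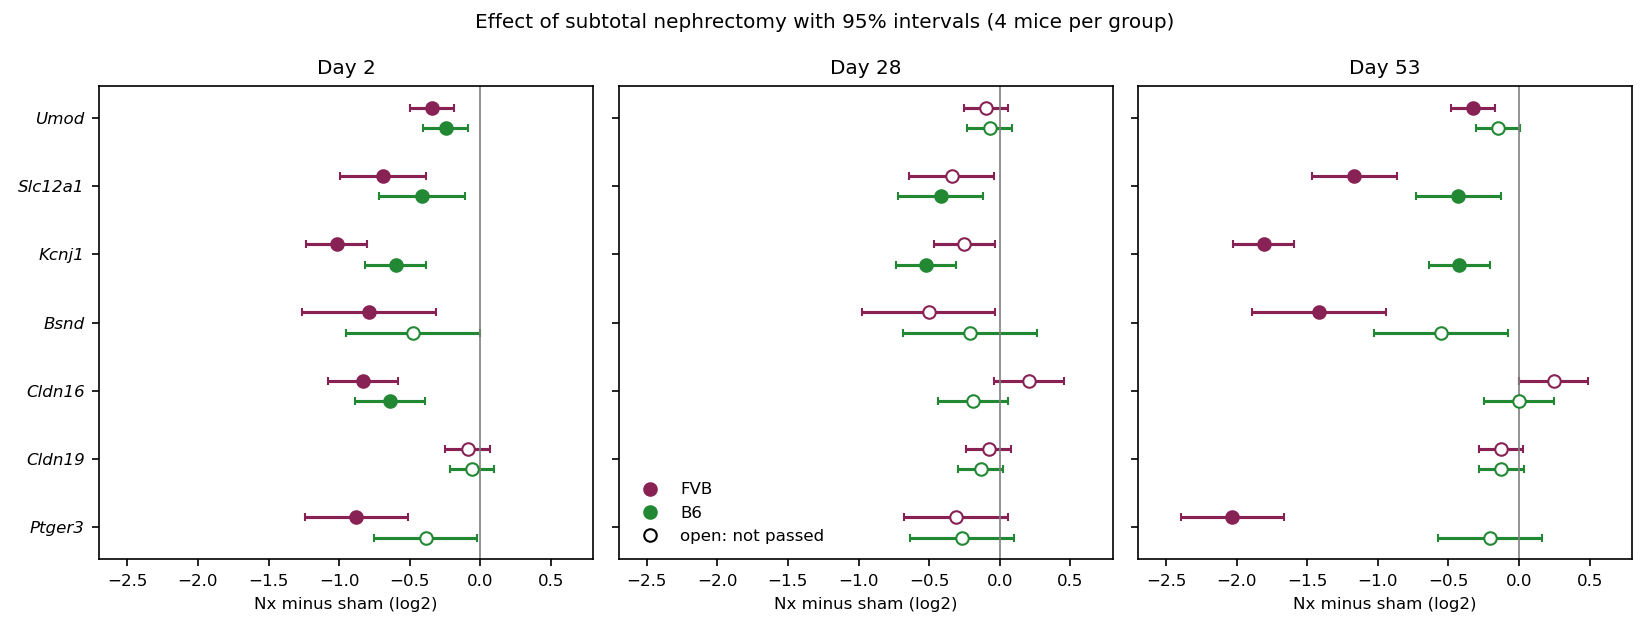
Nx minus sham log2 difference (x axis) of each member (y axis) at day 2, day 28 and day 53, with 95% intervals of the limma fit, for FVB (purple) and B6 (green), 4 mice per group. Filled points passed at an adjusted p under 0.05 and open points did not. At day 53 the FVB points of Slc12a1, Kcnj1, Bsnd and Ptger3 lie between -1.17 and -2.03, to the left of the B6 points.

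The FVB mice at day 53 did not fall equally. As B6 Nx mouse 11 was in its group at day 2, Nx mouse 10 was the lowest of its group for all 6 members other than Cldn19, with 11.90 for Slc12a1, 8.73 for Ptger3 and 3.84 for Bsnd. The SD within that group was 0.65 for Slc12a1 and 0.60 for Ptger3, against 0.14 and 0.28 in the B6 Nx kidneys of the same day. Leaving this mouse out ended none of the 5 calls at FVB day 53.

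The strains were compared by the difference of their surgery effects, FVB minus B6. At day 53, 4 of the 7 members had a larger fall in FVB, where 14.9% of all genes had a lower effect in FVB. They were Ptger3 (-1.83, SE 0.26, adjusted p = 1.2e-06), Kcnj1 (-1.39, SE 0.15, adjusted p = 8.8e-09), Bsnd (-0.87, SE 0.33, adjusted p = 0.0445) and Slc12a1 (-0.73, SE 0.21, adjusted p = 0.00715, all by limma). On the arrays of this comparison alone, Slc12a1 did not pass (-0.73, SE 0.32, limma adjusted p = 0.11). The difference for Bsnd is uncertain, since it was lost without the filter on low values, over all probe sets and with array weights (adjusted p = 0.0563 to 0.0659), and in 11 of the 16 fits that left out 1 mouse (adjusted p = 0.0512 to 0.112); the mice concerned were FVB Nx 4, 8 and 10, FVB sham 3 and 6, B6 Nx 2, 4 and 7, and B6 sham 1, 3 and 5. Umod (-0.18, 95% interval -0.40 to 0.04, limma adjusted p = 0.241) and Cldn16 (0.24, -0.11 to 0.59, adjusted p = 0.328) did not pass.

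At day 2 no member's effect differed between the strains past the limma threshold (1 at an unadjusted p under 0.05, Kcnj1), where 4.41% of all genes did. The estimates for Slc12a1, Kcnj1, Bsnd and Ptger3 were -0.28, -0.42, -0.31 and -0.49, with 95% intervals of -0.70 to 0.15, -0.72 to -0.12, -0.98 to 0.36 and -1.01 to 0.03. Kcnj1 passed without B6 Nx mouse 11 (-0.49, limma adjusted p = 0.0441). At day 28 none of the 7 passed either (1 unadjusted, Cldn16 at 0.39), where 0.129% of all genes did, and the Kcnj1 estimate was 0.27 (95% interval -0.03 to 0.58).

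Within FVB the surgery effect changed from day to day. From day 2 to day 28 it rose for 2 of 7 members (12.8% of all genes), Kcnj1 by 0.77 (SE 0.15, adjusted p = 0.0002) and Cldn16 by 1.04 (SE 0.17, adjusted p = 2.28e-05 by limma). Umod moved by 0.24, which passed only without FVB sham day 2 mouse 4 among the mice left out in turn (0.31, limma adjusted p = 0.0382). Under a shift of the arrays to a common median (0.33, limma adjusted p = 0.0299) and with array weights (0.29, 0.0342) the Umod change passed too. From day 28 to day 53 the effect fell for 4 of 7 members (12.6% of all genes). Ptger3 fell by 1.72, Kcnj1 by 1.56, Bsnd by 0.92 and Slc12a1 by 0.83 (limma adjusted p = 3.48e-06, 1.12e-09, 0.0365 and 0.00308). Bsnd lost this call without FVB Nx day 28 mouse 2, Nx day 53 mouse 8 or 10, sham day 28 mouse 1 or 2, or sham day 53 mouse 3 or 6 (adjusted p = 0.0614 to 0.102), and both Slc12a1 and Bsnd lost it on the arrays of this comparison alone (0.0828 and 0.0961). Umod gained a call without Nx day 53 mouse 7 (-0.30, limma adjusted p = 0.0342) and under the common median (-0.33, limma adjusted p = 0.033). Cldn16 stayed at an estimate of 0.04 over that interval (95% interval -0.31 to 0.39). In B6 none of the 7 members passed the limma threshold for either interval (unadjusted, 1 and 0), where 8.86% of all genes passed from day 2 to day 28 and 0% from day 28 to day 53.

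In sham kidneys Kcnj1 differed between the strains. Over the 12 sham kidneys of each strain it was lower in FVB by 0.32 on the log2 scale (-0.32, SE 0.06, limma adjusted p = 6.33e-05), where 15.6% of all genes were lower in FVB. FVB sham values ran from 12.09 to 12.52 and B6 sham values from 12.36 to 12.81, with some overlap. The other 6 members did not pass. Cldn16 was close to the threshold at 0.17 (SE 0.07, adjusted p = 0.0539) and passed in 7 of the 24 fits that left out 1 sham mouse (0.19 to 0.20, adjusted p = 0.0272 to 0.0496): B6 day 2 mouse 5, day 28 mouse 5 or 6, day 53 mouse 3 or 5, and FVB day 28 mouse 3 or day 53 mouse 3. Sham kidneys of day 2 did not differ from those of days 28 and 53 for any member, in FVB (3.58% of all genes passed) or in B6 (0.782%); unadjusted, 1 and 0 passed. The largest estimate there was -0.41 for Ptger3 in FVB (95% interval -0.73 to -0.09, limma adjusted p = 0.157).

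Ordered by group mean, Slc12a1 and Kcnj1 had all 6 sham groups above all 6 Nx groups, though for Kcnj1 B6 Nx at day 53 (12.19) came close to FVB sham at days 2 and 28 (12.20 each). FVB Nx at day 53 was the lowest group for Slc12a1 (12.75), Kcnj1 (10.57), Bsnd (4.30) and Ptger3 (9.60), followed upward by FVB Nx at day 2 (13.12, 11.18, 4.86 and 10.36). For Umod the order of those groups was the other way round, 14.76 at day 2 and 14.85 at day 53. Cldn16 was highest in FVB Nx at day 53 (8.64) and lowest in B6 Nx at day 2 (7.66). Neighbours in these orders mostly overlapped: of 11 neighbouring pairs, the values did not overlap in 2 for Kcnj1 and Ptger3, in 1 for Slc12a1 and Bsnd, and in 0 for Umod, Cldn16 and Cldn19.

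The size of the change depended on the probe set for 3 of the 4 members that have a second one. The second probe set of Slc12a1, which read from 2.28 to 7.38, was lower after Nx in all 6 comparisons, by -3.15, -2.02 and -3.89 in FVB at days 2, 28 and 53 and by -1.40, -1.61 and -1.53 in B6 (SE 0.37; limma adjusted p = 2.62e-11 to 0.00442). It thus called a fall at FVB day 28 that the first probe set did not. Its strain difference at day 53 was -2.36 (SE 0.52, adjusted p = 0.000877), and over sham kidneys it was higher in FVB by 0.92, where the first probe set gave -0.11. The second Kcnj1 probe set fell by 1.74 and 2.60 in FVB at days 2 and 53 and by 1.25 in B6 at day 2, with values of -0.40, -0.71 and -0.41 that did not pass in the other 3 comparisons, and its sham difference between strains (-0.25, adjusted p = 0.212) did not pass either. The second Umod probe set gave -0.36, -0.11 and -0.30 in FVB and -0.17, -0.12 and -0.07 in B6, and called the same 3 comparisons. It also passed for the strain difference at day 53 (-0.23, SE 0.08, limma adjusted p = 0.0349), which the first probe set did not. The same holds for the change of the FVB effect from day 2 to day 28 (0.25, SE 0.08, limma adjusted p = 0.0249). The second Ptger3 probe set had a mean of 2.25 over all arrays, at the bottom of the scale, and passed in none.

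**Figure D3:**
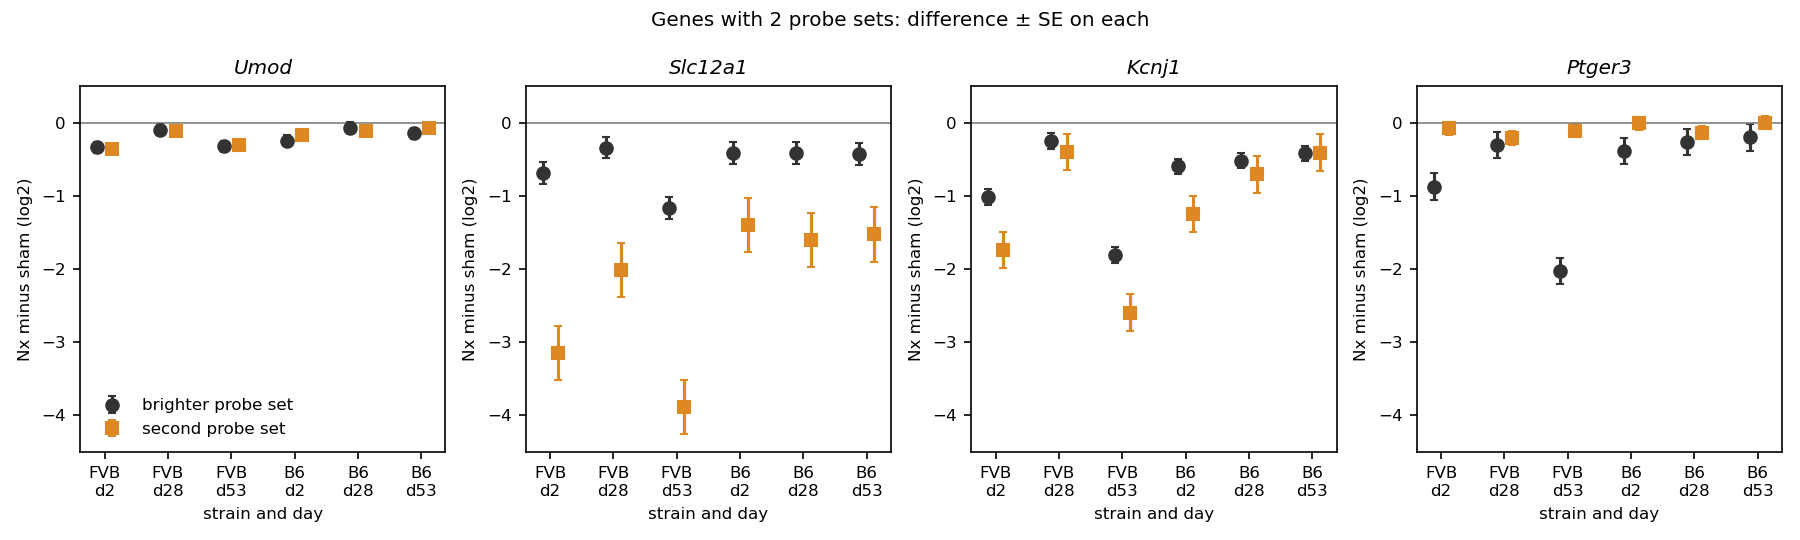
Nx minus sham log2 difference with SE (y axis) by strain and day (x axis) for the 4 members with 2 probe sets, black circles for the probe set with the higher mean and orange squares for the second. The second Slc12a1 probe set lies between -1.40 and -3.89 where the first lies between -0.34 and -1.17, and the second Ptger3 probe set lies near 0.

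Across the 12 group means Slc12a1, Kcnj1, Bsnd, Ptger3 and Umod followed each other, with pairwise Pearson r from 0.86 for Umod with Ptger3 to 0.98 for Kcnj1 with Bsnd. Cldn16 had r between -0.04 and 0.27 with those 5. The points share arrays and the same 6 surgery contrasts, so these values are a description. Deviations of single mice from their group means, over 48 arrays, gave r from 0.30 for Bsnd with Ptger3 to 0.73 for Slc12a1 with Ptger3 among those 5. For Cldn16 with the same 5 genes, r ran from 0.15 with Umod to 0.38 with Kcnj1, so the ranges overlapped. The 12 group means of 13167 other genes were compared with the mean standardised pattern of the 7 members, and gene models with provisional names were then skipped. The remaining genes most like it were Cyfip2 (r 0.99), Ehd3, Atg4d, Oxct1, Lysmd1, Mrps6, Efhd1 and Slc22a13 (r 0.98 each). With Cldn19 left out of the pattern, Idh2, Ttc7b, Scrn3 and Sirt3 (r 0.981 to 0.985) took the places of Ehd3, Lysmd1, Mrps6 and Efhd1. By single-mouse deviations, again with provisional names skipped, the nearest gene was Tmem207 for Slc12a1 (r 0.93), Wfdc15b for Kcnj1 (0.79), Mrps6 for Ptger3 (0.79), Laptm4b for Umod (0.73), Cgnl1 for Bsnd (0.69), Gnai1 for Cldn16 (0.65) and Zbtb45 for Cldn19 (0.58).

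Other genes of the segment were taken from a list of 51 ordered by role, of which 45 were measured. At FVB day 2, 28 of the 45 were lower and 6 higher, at day 28 17 were lower and 1 higher, and at day 53 28 were lower and 5 higher, where 30%, 8.81% and 27.8% of all genes were lower. The median log2 differences were -0.53, -0.31 and -0.66. Of all 13174 genes, 3273, 968 and 3412 were higher at the same days in FVB. In B6 25, 19 and 13 were lower (24.4%, 9.14% and 6.68% of all genes) and 4, 1 and 1 higher at days 2, 28 and 53. Among all genes 2655, 1297 and 1058 were higher in B6. The effect differed between the strains at day 53 for 27 of the 45, lower in FVB for 23 (14.9% of all genes) and higher for 4 (1874 of all 13174 genes).

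Of 7 other salt transport genes, 5 were lower at FVB day 2 (30% of all genes), none passed at day 28 (8.81%) and 6 were lower at day 53 (27.8%). Slc9a3, a luminal sodium-proton exchanger, fell by 1.14 and 1.25, the basolateral potassium channel genes Kcnj10 by 0.74 and 1.07 and Kcnj16 by 1.03 and 0.61, and the sodium pump subunit Fxyd2 by 0.68 and 0.52 (limma adjusted p = 3.5e-06 or lower). Which nephron segment these falls came from was not tested in whole-kidney RNA. The proximal tubule gene Lrp2 fell by 1.14 and 1.50 at the same days in FVB. In B6, 5, 2 and 0 of the 7 salt transport genes were lower at days 2, 28 and 53 (24.4%, 9.14% and 6.68% of all genes). The 6 tight junction genes were mixed. In FVB 2, 1 and 2 were lower at days 2, 28 and 53 (30%, 8.81% and 27.8% of all genes). In B6 1, 1 and 0 were lower (24.4%, 9.14% and 6.68%). In FVB 2, 0 and 2 were higher and in B6 1, 0 and 0, where 968 to 3412 of all 13174 genes were. The 2 higher in FVB were Cldn3 and Tjp1. Cldn10 was lower by -0.48, -0.32 and -0.87 in FVB, and which of its transcript forms the probe set reads was not tested. Cldn3 rose by 1.11 at FVB day 2, 1.19 at B6 day 2 and 2.39 at FVB day 53 (SE 0.14; limma adjusted p = 2.47e-08, 1.43e-08 and 1.92e-16), with a strain difference of 2.37 at day 53 (adjusted p = 7.24e-11). Cldn14 did not pass in any comparison.

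Of 11 measured genes of receptors and signalling, 5, 2 and 5 were lower in FVB at days 2, 28 and 53 (30%, 8.81% and 27.8% of all genes). In B6 5, 3 and 3 were lower (24.4%, 9.14% and 6.68%). In FVB 3, 1 and 3 were higher and in B6 2, 1 and 1, where 968 to 3412 of all 13174 genes were. Casr, the calcium-sensing receptor, was lower in all 6 comparisons. It fell by 2.19 at FVB day 53 (SE 0.18, adjusted p = 3.56e-13 by limma) and by 0.81 at B6 day 53 (adjusted p = 0.00108). The glucagon receptor gene Gcgr fell by 2.50 at FVB day 53 and 0.73 at B6 day 53, and the vasopressin receptor gene Avpr2, which the collecting duct also expresses, by 1.28 at FVB day 53 (limma adjusted p = 9.52e-13, 0.0138 and 7.6e-07). Adcy6, an adenylyl cyclase that such receptors drive, was lower in all 6 comparisons, between -0.39 and -0.72. The other prostaglandin E receptors did not follow Ptger3. Ptger4 was higher in all 6 comparisons, by 1.30, 0.64 and 1.72 in FVB and 0.77, 0.66 and 0.51 in B6 (SE 0.18, limma adjusted p = 2.06e-10 to 0.0495). Ptger2 rose by 2.71 at FVB day 2, 1.19 at B6 day 2 and 1.05 at FVB day 53, from sham means of 2.58 to 2.70 close to the lowest value of the table. Macrophages also express Ptger2 and Ptger4. Of 10 macrophage genes all were higher at FVB day 2, B6 day 2 and FVB day 53, where 3273, 2655 and 3412 of all 13174 genes were. In each of the other comparisons 8 were higher, where 968 to 1297 of all genes were. The part of macrophages in the rise of Ptger2 and Ptger4 was not tested. Ptger1 passed nowhere.

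The kinase cascade that phosphorylates the salt cotransporter was lower in parts. Of 7 measured genes in the list group of transporter kinases and trafficking, 5, 4 and 4 were lower in FVB at days 2, 28 and 53 (30%, 8.81% and 27.8% of all genes). In B6 2, 4 and 3 of them were lower (24.4%, 9.14% and 6.68%). Wnk1, a kinase at its head, was lower in all 6 comparisons (-0.47, -0.32 and -0.82 in FVB, -0.45, -0.30 and -0.26 in B6). Wnk4 fell by 0.78, 0.48 and 1.64 in FVB and, of the B6 days, by 0.47 and 0.38 at days 28 and 53. Stk39, the kinase that Wnk proteins activate, fell by 0.34 and 0.68 at FVB days 2 and 53 and by 0.30 at B6 day 28. Oxsr1 and Cul3 did not pass in any comparison.

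Of 7 measured genes in the list group of secreted and surface products, which also holds Ppp1r1a, 5, 3 and 5 were lower in FVB at days 2, 28 and 53 (30%, 8.81% and 27.8% of all genes). In B6 5, 3 and 2 of them were lower (24.4%, 9.14% and 6.68%). This group held the 2 largest falls of the list at FVB day 53. Egf, a growth factor precursor made in the thick limb and distal convoluted tubule, was at 12.88 in FVB Nx kidneys at day 2 and 10.46 at day 53 against 13.80 and 13.87 after sham, a fall of 0.92 and 3.41 (SE 0.17; limma adjusted p = 1.3e-05 and 6.19e-19). Its day 53 effect was lower in FVB than in B6 by -2.94 (SE 0.24, adjusted p = 1.79e-11). Tmem207 fell by 3.73 and Ppp1r1a, a phosphatase inhibitor, by 2.51 at FVB day 53, with strain differences of -3.08 and -1.77 (adjusted p = 1.48e-06 and 2.81e-06 by limma). Mal passed at FVB day 28 alone of the 6 comparisons (-0.31). Muc1 went the other way, higher by 1.28 at FVB day 2 and 1.34 at B6 day 2 (SE 0.49, limma adjusted p = 0.0248 and 0.0237). It did not pass at the later days.

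Transcription factors of the list were lower at FVB day 28, all 7 of those measured (8.81% of all genes): Esrrb (-0.88), Pou3f3 (-0.79), Irx1 (-0.63), Irx2 (-0.61), Ppargc1a (-0.51), Irx3 (-0.48) and Esrrg (-0.31), with limma adjusted p between 2.3e-06 and 0.0436. In B6, 7, 6 and 5 of 7 were lower at days 2, 28 and 53 (24.4%, 9.14% and 6.68% of all genes). Esrrb, a nuclear receptor, was lower in all 6 comparisons and fell by 2.84 at FVB day 53 against 1.07 at B6 day 53 (difference -1.77, SE 0.37, adjusted p = 0.000372). Irx1, Irx2, homeobox genes of the Iroquois group, Pou3f3, which loop of Henle development needs, and Ppargc1a, a coactivator for mitochondrial genes, were also lower in all 6. Whether the factors at FVB day 28 differ in their effect from the 7 members was not tested.

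**Figure D4:**
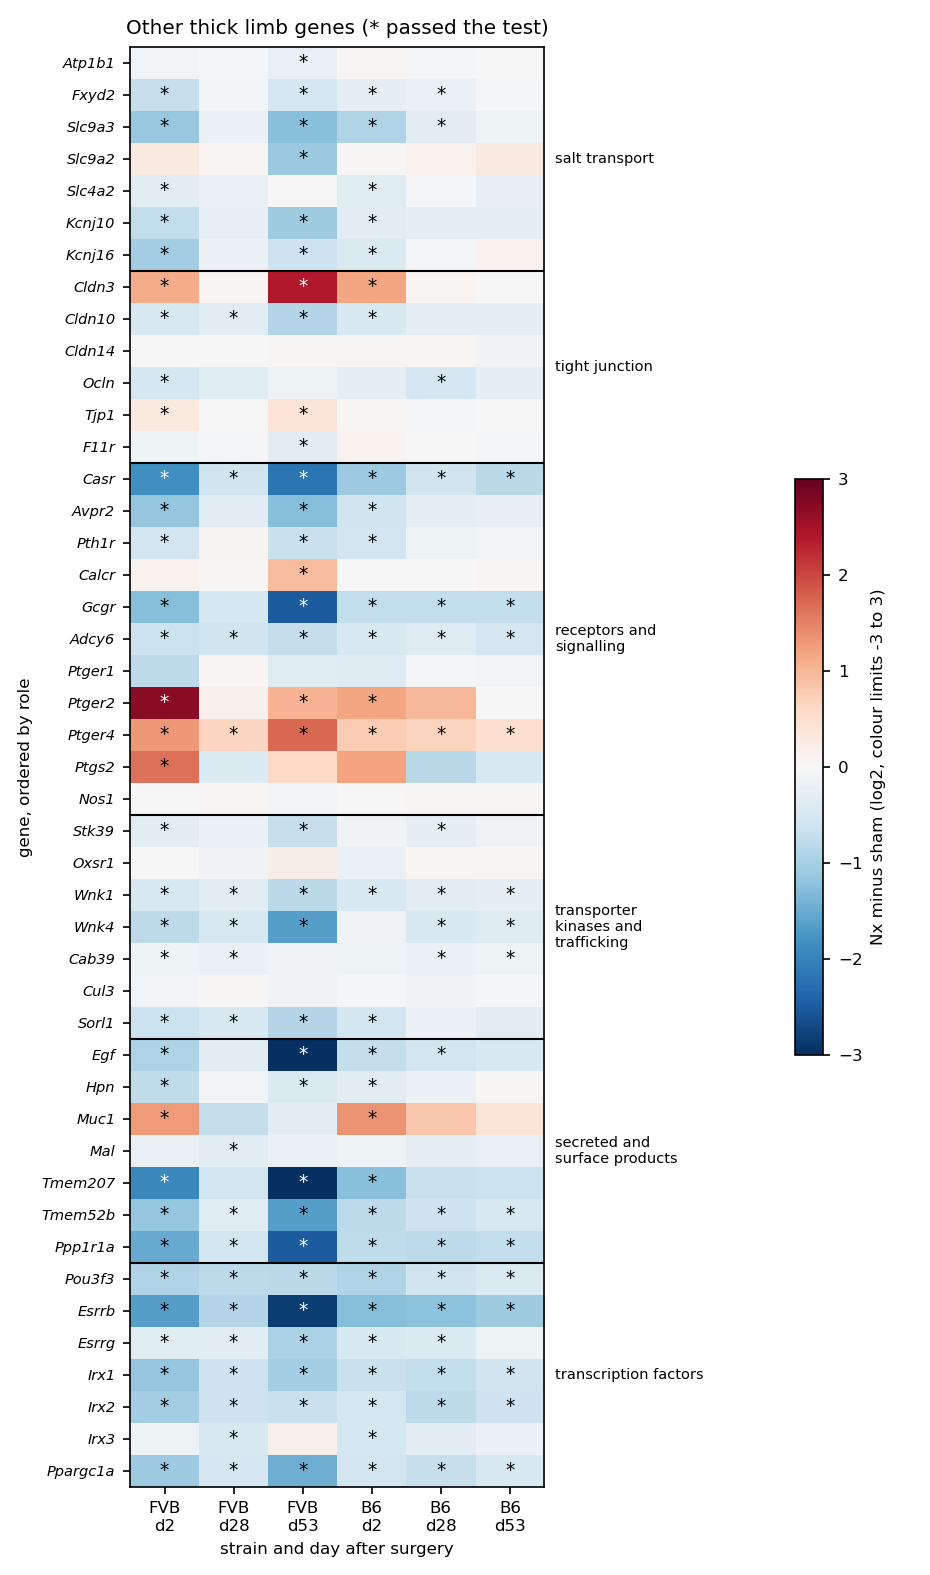
Nx minus sham log2 difference of the 45 measured genes of the wider thick limb list (rows, ordered by role) by strain and day (columns); blue is lower and red higher after Nx, colours end at -3 and 3, and an asterisk marks an adjusted p under 0.05. All 7 transcription factors are marked at FVB day 28, where none of the 7 salt transport genes is.

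Other nephron segments were lower at the same time. At FVB day 53, where 27.8% of all genes were lower, 14 of 15 proximal tubule genes were lower (median -1.13), 5 of 6 distal convoluted tubule genes (-2.26), 14 of 15 collecting duct genes (-0.96) and 3 of 5 podocyte genes (-1.22), beside 5 of the 7 thick limb members (-1.17). Slc12a3, the salt cotransporter of the distal convoluted tubule, fell by 3.02 there and Lrp2 by 1.50. At FVB day 28, where 8.81% of all genes were lower, the counts were 3 of 15, 1 of 6, 4 of 15 and 3 of 5. On the same arrays 9 of 9 injured tubule genes were higher at FVB day 53 (median 3.16), with list means of 10.07 to 10.45 in Nx against 6.11 to 6.61 in sham kidneys, and 10 of 10 macrophage genes (median 4.57), with 9.80 to 10.27 against 5.55 to 6.00. Of all 13174 genes, 3412 were higher at FVB day 53. The part of injured tubule cells and macrophages in the lower thick limb values, by the share of RNA they supply, was not tested.

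Of 14 pancreas genes, 13 were higher at FVB day 2, 10 at B6 day 2 and 1 at FVB day 53 (3273, 2655 and 3412 of all 13174 genes). None passed at FVB day 28, B6 day 28 or B6 day 53, where the median log2 differences were still 5.92, 6.61 and 3.88. Of 7 brown fat and muscle genes 2 were lower at FVB day 2 (30% of all genes) and 3 at B6 day 2 (24.4%). Over the 29 arrays whose pancreas mean did not pass 5, only mice 8 and 10 remained in the FVB Nx group of day 53, and mouse 10 is the lowest of that group for 6 members. The day 53 differences there were -2.02 for Kcnj1, -2.40 for Ptger3, -1.73 for Bsnd, -1.41 for Slc12a1 and -0.49 for Umod (limma adjusted p = 1.62e-05 for Bsnd, 5.12e-05 for Umod and lower for the others). At day 2, where 1 FVB and 1 B6 Nx mouse remained and are assumed to vary like the other groups, Kcnj1 and Cldn16 kept their calls in both strains (-1.01 and -0.85 in FVB, -0.62 and -0.56 in B6), Slc12a1 and Ptger3 kept theirs in FVB (-0.64 and -0.75), and Umod (-0.21 and -0.19 in the 2 strains), Bsnd in FVB (-0.72) and Slc12a1 in B6 (-0.29) no longer passed. Slc12a1 at B6 day 53 did not pass over these arrays either (-0.42, limma adjusted p = 0.2).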

How the data were processed

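Total RNA of 48 whole kidneys was hybridised to Affymetrix mouse arrays, 1 per mouse. Values for 45101 probe sets were used on the log2 scale as deposited; that scale was judged from their range (at most 16.18), and the submitters' processing notes name MAS5 without its role. Array medians lay between 3.168 and 3.441, and 32.1% of values stood at the lowest value. The number of arrays limits the precision.

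Probe sets above the 40th percentile (2.277) on at least 4 arrays were kept, and each gene was read from its single-symbol probe set with the highest mean (platform annotation: 34945 probe sets with 1 symbol, 932 with several, 9160 not listed). limma 3.58.1 (R 4.3.3) was fitted to the values as deposited, with 12 group means over all 48 arrays, an intensity trend, 16 contrasts and Benjamini-Hochberg adjustment over 13174 genes for each (two-sided, threshold 0.05), and was tested on simulated data. Figures used Python 3.11.15. The labels name separate mice.

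The members, the lists and the tests were chosen with earlier results of these data known. The text names all members, genes of the wider thick limb list, 1 gene of each other segment and the nearest genes by correlation. Mouse numbers recur in 10 sham and Nx pairs. Deviations of same-numbered mice correlated between -0.251 and 0.378, and in 4 of these pairs the sham mouse was the best match of the Nx mouse. The mice were treated as unpaired, and the labels do not say what a shared number stands for. The alternatives were other normalisations, filters, probe sets, arrays, weights, blocks and leaving out each mouse.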

Additional observations from a re-analysis of the deposited data

Results flagged for a closer look

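Of 84 groups of 4 mice checked for a value far from the other 3, 8 held one, where 4.2 would be set apart at 1 in 20. Umod in FVB Nx mouse 2 at day 28 read 15.36 against 15.09 to 15.12 in the other 3, and Slc12a1 in FVB Nx mouse 4 at day 2 read 12.95 against 13.17 to 13.20. The other 6 were Cldn19, whose remaining mice all stood at 2.43: FVB sham mouse 3 at day 28 (2.75) and mouse 3 at day 53 (2.77), FVB Nx mouse 4 at day 53 (2.26), B6 sham mouse 5 at day 2 (2.55), B6 Nx mouse 3 at day 2 (2.32) and B6 sham mouse 6 at day 53 (2.71).

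Surgery effects differed between strains or days in 10 tests of the difference itself, all by limma with adjusted p under 0.05. At day 53, FVB minus B6 was -0.735 for Slc12a1, -1.387 for Kcnj1, -0.868 for Bsnd and -1.827 for Ptger3 (4 of 7 members, 14.9% of all genes lower). From day 28 to day 53 the FVB effect changed by -0.825 for Slc12a1, -1.559 for Kcnj1, -0.916 for Bsnd and -1.722 for Ptger3 (4 of 7, 12.6% of all genes lower). From day 2 to day 28 it changed by 0.768 for Kcnj1 and 1.041 for Cldn16 (2 of 7, 12.8% of all genes higher). No member passed for the strain difference at day 2 or 28 (4.41% and 0.129% of all genes). None passed for either interval in B6 (8.86% and 0%). The 2 Bsnd calls are uncertain: they held in 11 of 25 alternative fits for the strain difference and in 15 of 25 for the change in FVB.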

How the results depend on the processing

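The 58 alternative fits, 48 of which left out 1 mouse each, and the second probe sets together gave 2535 values of single members. A fit without 1 mouse shares most of its data with the main fit. Of the 2535, 2438 kept their side of the threshold with no called value changing sign, 61 lost a call, 34 gained one and 2 turned where either value had passed. Of the 2438, 104 from the 58 fits changed sign with neither value passing. Where a value moved, the cause was not tested. The 2 that turned came from second probe sets: Slc12a1 in sham FVB minus B6 was 0.922, and Ptger3 in FVB from day 28 to day 53 was 0.099. At FVB day 28, where 0 members passed and 1161 of all 13174 genes were lower, array weights called 2 members, with 1847 genes lower. A fit on the arrays of the comparison alone called 1 member there, with 963 genes lower. The B6 day 2 count fell from 4 to 2 without arrays carrying pancreas transcripts. At B6 day 28 quantile normalisation, no filter, all probe sets, and leaving out the pancreas arrays each called 1 member in place of 2, and at B6 day 53 the last 3 of these called 1. At B6 day 28, 1204 of all 13174 genes were lower, against 1291 with quantile normalisation, 1072 of 18193 with no filter and 1870 of 29213 probe sets. At B6 day 53 these were 880 in the main fit, 779 with no filter and 1311 over all probe sets. From day 2 to day 28 in FVB, shifting arrays to a common median called 4 members in place of 2, while all genes called higher went from 1680 to 2316. Using only the arrays of the comparison also called 4 members there, and called 2 in place of 4 from day 28 to day 53. In sham FVB minus B6, array weights, only those arrays, and mouse number as a random replicate block (correlation 0.126) each called 2 in place of 1, the block adding Cldn16 (0.178, limma adjusted p = 0.0473). With array weights all genes called higher in that comparison went from 2223 to 2807. As a fixed replicate block at FVB day 2, mouse number left 6 members called; 2 of 4 same-numbered pairs there were best matches. Leaving out 1 mouse gave 0 to 1 members at FVB day 28, 1 to 2 at B6 days 28 and 53, 0 to 1 for the strain difference at day 2 and 1 to 2 for sham FVB minus B6.

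Shifting arrays to a common median moved the split of all genes called higher and lower from 3273 and 3948 to 2746 and 4985 at FVB day 2, from 3412 and 3663 to 2834 and 4693 at FVB day 53, and from 2655 and 3219 to 2292 and 3862 at B6 day 2. Without pancreas arrays, the strain difference at day 53 also passed for Umod (-0.33, limma adjusted p = 0.0347). Cldn19, near the lowest value of the table, is limited by signal.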
